A study of Mus musculus with 5 samples.

Results

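The genes described here are 10 selenoprotein genes of cardiac fibroblasts (CF), *Gpx1*, *Gpx3*, *Gpx4*, *Selenop*, *Selenow*, *Selenom*, *Selenos*, *Selenok*, *Selenof* and *Msrb1*. They were found by name among the 20365 gene names of the SLAMseq tables, all 10 had a match, and each was represented by its 3′ UTR interval with the highest mean deposited CPM in the labeled libraries. The 10 genes own 12 of the 40428 distinct intervals. CF were isolated from hearts of adult healthy male C57Bl/6J wildtype mice by collagenase perfusion, depleted of CD31+ and CD45+ cells and grown until confluency. In 3 libraries the cells had received the uridine analog 4-thiouridine (S4U) at 0.1 mM for 12 h, and in 2 libraries they were kept for the same time without S4U, and RNA of both groups was alkylated. The libraries of a group are called labeled 1, 2 and 3 and unlabeled 1 and 2, and the p-values below measure the spread between them. The labels do not tie a library to a cell preparation.

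Selenoproteins contain selenocysteine (Sec), an amino acid that is inserted at an in-frame UGA codon. Decoding of this codon needs a stem-loop of the 3′ UTR, the SECIS element, together with dedicated binding and elongation factors, and the same codon can be read as a premature stop, which can expose a transcript to nonsense-mediated decay. Most of these proteins are redox enzymes, and GPX3 and SELENOP are secreted, SELENOP being the carrier that delivers selenium to other cells. In SLAMseq, S4U that was built into a new transcript is read as C in place of T, so the T>C conversion rate, the share of covered T positions read as C, rises with the part of a transcript pool that was made during labeling.

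The first Sec codon of each gene, with 12 coding-strand bases on each side, is shown because the place of this codon is set beside the conversion rates further down. Sequences were read from the GENCODE transcripts of GRCm39, and the capitals mark the TGA of the Sec codon.
*Gpx1*: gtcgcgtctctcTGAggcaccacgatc
*Gpx3*: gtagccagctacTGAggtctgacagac
*Gpx4*: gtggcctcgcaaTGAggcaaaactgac
*Selenop*: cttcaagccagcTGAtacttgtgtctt
*Selenow*: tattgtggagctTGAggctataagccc
*Selenom*: acctgtggaggaTGAcagttgaatcgc
*Selenof*: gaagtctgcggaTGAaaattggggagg
*Msrb1*: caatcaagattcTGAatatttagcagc
*Selenok*: atggctggtggaTGAggaaggtaaatg
*Selenos*: tcatctggcggcTGAaactaagactct
The codon lies early in the coding sequence of *Selenow* (codon 13 of 88) and *Gpx1* (codon 47 of 201). In *Selenok* (codon 92 of 94) and *Selenos* (codon 189 of 190) it is close to the stop codon. *Selenop* differs from the other genes by its 10 Sec codons, of which the first is codon 59 of 380 and the other 9 lie in the last exon.

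The intervals used lie in the last exon and hold 3′ UTR, with no coding base, except that of the 841 bases of the *Msrb1* interval 834 lie in the last exon and the rest run past the end of the canonical transcript. On GRCm39, which has the T content of the deposited mm39 intervals, the glutathione peroxidase genes are *Gpx1* (ENSMUSG00000063856.10, chr9:108217336-108217541, plus strand), *Gpx3* (ENSMUSG00000018339.14, chr11:54800485-54801213, plus strand) and *Gpx4* (ENSMUSG00000075706.12, chr10:79892053-79892273, plus strand). *Selenop* (ENSMUSG00000064373.15) was counted at chr15:3309193-3309992 on the plus strand and *Msrb1* (ENSMUSG00000075705.15) at chr17:24960912-24961752 on the plus strand. The genes of small redox proteins are *Selenow* (ENSMUSG00000041571.11, chr7:15651133-15651464, minus strand) and *Selenom* (ENSMUSG00000075702.12, chr11:3467161-3467351, plus strand). The genes of proteins of the endoplasmic reticulum (ER) are *Selenos* (ENSMUSG00000075701.12, chr7:65738601-65739153, plus strand), *Selenok* (ENSMUSG00000042682.12, chr14:29696437-29697031, plus strand) and *Selenof* (ENSMUSG00000037072.17, chr3:144302716-144303438, plus strand). The *Selenop* interval ends 3694 bases before the end of the canonical transcript, the *Selenok* interval 1367, the *Gpx3* interval 1211 and the *Selenom* interval 200 bases before it, so reads from the distal ends of these transcripts were not counted on them. The *Gpx3* interval overlaps *Tnip1* and the *Selenop* interval overlaps *Ccdc152*, both on the opposite strand. For *Gpx4*, the whole interval of 221 bases has a copy with 100% identity at chr10:45751942-45752162 on the plus strand, annotated as the lncRNA *Gm63662* (ENSMUSG00000121783.1), and the reads of *Gpx4* are uncertain for this reason. Parts of 2 other intervals also have near copies (50 or more bases at 90% identity or more), *Selenok* at 10 other places (longest match 362 of 595 bases, identity up to 96.9%) and *Selenof* at 1 (271 of 723 bases).

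Levels are given as CPM relative to counted reads, the reads of a gene scaled to the sum of reads on 1 interval per gene. Between 506045 and 1843033 such reads were counted per library. Labeled 1 stood apart from labeled 2 and 3, and the 2 unlabeled libraries differed as much from each other. The read counts of labeled 2 and 3 differed by a chi-square per degree of freedom of 2.04, against 16.6 and 11.0 for labeled 1 with each of them and 16.1 for unlabeled 1 with unlabeled 2. All 12 fibroblast markers had reads in every library, with a summed level from 42541 to 46221 in the labeled and from 34914 to 38197 in the unlabeled libraries. The 12 macrophage and leukocyte markers summed to 127 to 203 and 137 to 227, the 8 endothelial markers to 145 to 256 and 180 to 265, and the 6 mural markers to 34.3 to 88.9 and 38.5 to 102. The 8 cardiomyocyte markers summed to at most 9.03 in any library with *Ryr2* at 0, and the 5 mesothelial markers to at most 5.93 with *Msln* and *Krt19* at 0.

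The secreted glutathione peroxidase *Gpx3* had the highest level among the 10 genes, followed by *Selenop*, and *Gpx4* the lowest by counted reads, which may not measure its level because of the identical copy of its interval. A library of 3′ ends yields reads per transcript and not per base, and the order that follows is of levels that were not divided by length. *Gpx3*, whose product reduces peroxides outside the cell, was at 549, 2270 and 2523 CPM relative to counted reads in labeled 1, 2 and 3, and at 606 and 2363 in unlabeled 1 and 2. Both libraries numbered 1 were low for this gene, in either group. *Selenop* was at 825, 382 and 427 in labeled 1, 2 and 3 and at 1420 and 832 in unlabeled 1 and 2. Here the libraries numbered 1 were the high ones, and each labeled library was below both unlabeled libraries, by the small margin of 825 against 832 at the closest.

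The genes of 3 ER proteins, *Selenos*, *Selenok* and *Selenof*, formed the middle group. *Selenos*, a membrane protein of the ER that takes part in the export of misfolded proteins, was at 428, 342 and 377 in the labeled and at 359 and 306 in the unlabeled libraries. *Selenok*, a small ER membrane protein that binds the palmitoyltransferase ZDHHC6, was at 274, 388 and 468 in the labeled and at 275 and 361 in the unlabeled libraries. *Selenof*, which binds the glycoprotein folding sensor UGGT1, was at 454, 285 and 334 in the labeled and at 446 and 277 in the unlabeled libraries. The groups overlapped for all 3 genes, and the SD over the labeled libraries was 11.2% of the mean for *Selenos*, 25.9% for *Selenok* and 24.3% for *Selenof*, beside a median of 28.7% over the 9807 genes tested.

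Lower levels were measured for the cytosolic enzymes and small redox proteins. *Gpx1*, the cytosolic and mitochondrial glutathione peroxidase, was at 85.0, 205 and 146 in the labeled and at 87.9 and 152 in the unlabeled libraries. *Selenow*, a small thioredoxin-like protein, was at 78.0, 123 and 101 in the labeled and at 78.7 and 97.4 in the unlabeled libraries. For both genes labeled 1 and unlabeled 1 were the lowest libraries of their groups. *Selenom*, a thioredoxin-like protein of the ER, was at 8.25, 125 and 124 in the labeled and at 8.68 and 84.3 in the unlabeled libraries. *Msrb1*, which reduces oxidized methionine, was at 13.3, 87.0 and 77.1 in the labeled and at 19.5 and 71.3 in the unlabeled libraries. The libraries numbered 1 thus held few reads of *Selenom* (13 and 16) and *Msrb1* (21 and 36). *Gpx4*, which reduces lipid peroxides in membranes and restrains ferroptosis, had 10, 6 and 1 reads in the labeled and 13 and 1 in the unlabeled libraries, a level of 4.45 ± 2.24 (SD, n = 3 labeled libraries).

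**Figure D1:**
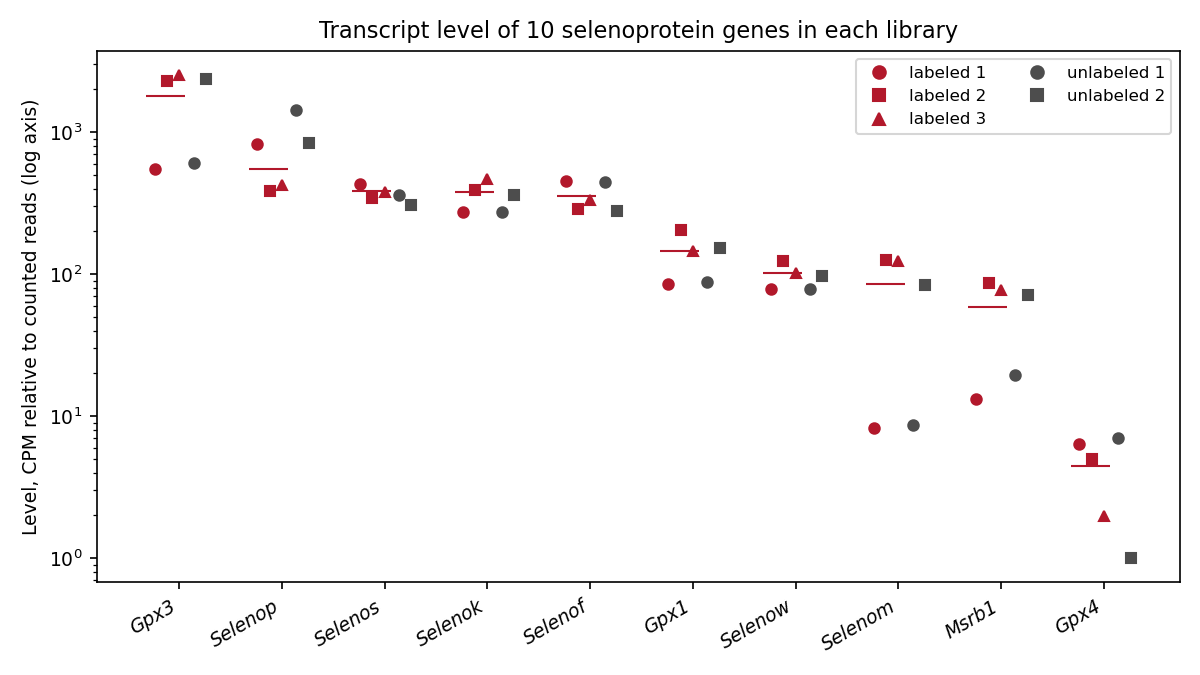
Level of each gene in CPM relative to counted reads on a log axis, with 1 point per library (red: labeled, grey: unlabeled, symbol: replicate number) and a bar at the mean of the 3 labeled libraries. *Gpx3*, *Selenom* and *Msrb1* are low in both libraries numbered 1, and the red points of *Selenop* lie below its grey points.

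The labeled means put the genes in the order *Gpx3* (1781 ± 1074, SD, n = 3), *Selenop* (545 ± 244), *Selenos* (382 ± 42.9), *Selenok* (377 ± 97.6), *Selenof* (357 ± 87.0), *Gpx1* (145 ± 60.0), *Selenow* (101 ± 22.5), *Selenom* (85.8 ± 67.2), *Msrb1* (59.1 ± 40.0) and *Gpx4*. Of the 9 steps between neighbours, 3 were larger than the SD of either gene, namely *Gpx3* to *Selenop*, *Selenof* to *Gpx1* and *Msrb1* to *Gpx4*. In labeled 1, *Selenop* was above *Gpx3*. Divided by the length of the interval, the level was 2443 ± 1474 CPM per kb for *Gpx3* and 706 ± 291 for *Gpx1*, which moved from the sixth to the second place. On that scale *Selenos* (692), *Selenop* (681) and *Selenok* (633) came next, and *Msrb1* (70.3) and *Gpx4* (20.1) remained the lowest. With reads summed over the intervals of a gene, *Msrb1* (81.7) came before *Selenow* (69.1) and *Selenom* (59.3), since its 2 intervals have the same reads, which then count for both.

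With S4U, 9 of the 10 genes had a higher T>C conversion rate than without it (beta-binomial likelihood-ratio test, Benjamini-Hochberg adjusted p below 0.05 over 19240 intervals). The same was true of 94.5% of all intervals tested, so this share is near the background. *Gpx4* did not pass (adjusted p = 0.215), with 8 to 77 covered T positions per labeled library. The size of the rate separated the genes. *Selenok* and *Selenos* had rates above the median gene, whereas those of *Gpx3* and *Selenop* were among the lowest of all deeply covered genes. For comparison, the 2107 genes whose coverage reached 1000 T positions in each of the 5 libraries (deeply covered genes) showed a median rate of 3.88%, with quartiles at 3.43% and 4.22%, and 37 of them (1.76%) were below 1%.

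*Gpx3* had T>C conversion rates of 0.577%, 0.944% and 0.682% in labeled 1, 2 and 3, from 9018 to 38346 covered T positions, and 0.0586% and 0.0247% without S4U (adjusted p = 0.000247, beta-binomial test). Its mean was higher than that of 0.664% of the deeply covered genes. *Selenop* had 0.779%, 0.896% and 1.12% in the labeled and 0.0200% and 0.0239% in the unlabeled libraries (adjusted p = 1.93e-05), and its mean was higher than that of 1.28% of the deeply covered genes. Relative to the median of the same library, the rate was from 15.2% to 24.2% for *Gpx3* and from 20.6% to 28.8% for *Selenop*. A T>C conversion was present in 7.41% ± 2.57 (SD, n = 3) of the *Gpx3* reads and in 12.6% ± 2.90 of the *Selenop* reads.

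The ER genes differed among themselves. *Selenok* reached 4.27%, 4.75% and 4.19% in the labeled and 0.112% and 0.113% in the unlabeled libraries (adjusted p = 5.69e-06). *Selenos* reached 4.09%, 4.02% and 4.29%, with 0.169% and 0.0550% without S4U (adjusted p = 8.63e-06). The means of these genes were above those of 85.0% and 69.4% of the deeply covered genes, and most of their reads carried a conversion (61.9% ± 4.58 and 59.7% ± 3.50, SD, n = 3). *Selenof* was lower in each labeled library, with 2.17%, 2.07% and 2.86%, and had 0.0754% and 0.0430% in the unlabeled libraries (adjusted p = 2.87e-05). *Selenom*, also a protein of the ER, had 1.24%, 2.70% and 2.18%, of which the value of labeled 1 rests on 3 conversions in 242 covered T positions. No conversion of *Selenom* was seen in the unlabeled libraries, which allows a rate of up to 1.21% and 0.232% (adjusted p = 0.000228).

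The cytosolic genes lay in between. *Gpx1* had 2.72%, 3.01% and 3.56% in labeled 1, 2 and 3 (adjusted p = 2.31e-05), 0 conversions in 2537 covered T positions of unlabeled 1, which allows up to 0.118%, and 0.0344% in unlabeled 2. *Msrb1* had 4.55%, 2.64% and 3.12% in the labeled libraries (adjusted p = 9.30e-05) and 0 conversions in the unlabeled libraries, which allows up to 0.577% and 0.234%. The highest of the *Msrb1* values, that of labeled 1, counts 12 conversions in 264 covered T positions. *Selenow* had 2.05%, 1.55% and 2.79% in the labeled libraries (adjusted p = 0.00291), with 0.551% in unlabeled 1 and 0.0625% in unlabeled 2. The value of unlabeled 1 comes from 9 conversions in 9 of 145 reads and is the highest rate of the 10 genes without S4U. *Gpx4* had 6 conversions in 77 covered T positions of labeled 1 (7.79%) and none elsewhere, where 8 to 97 covered positions allow rates of 3.09% to 37.5%. Limits given for 0 conversions are 3 conversions of the covered positions and cover counting error only.

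**Figure D2:**
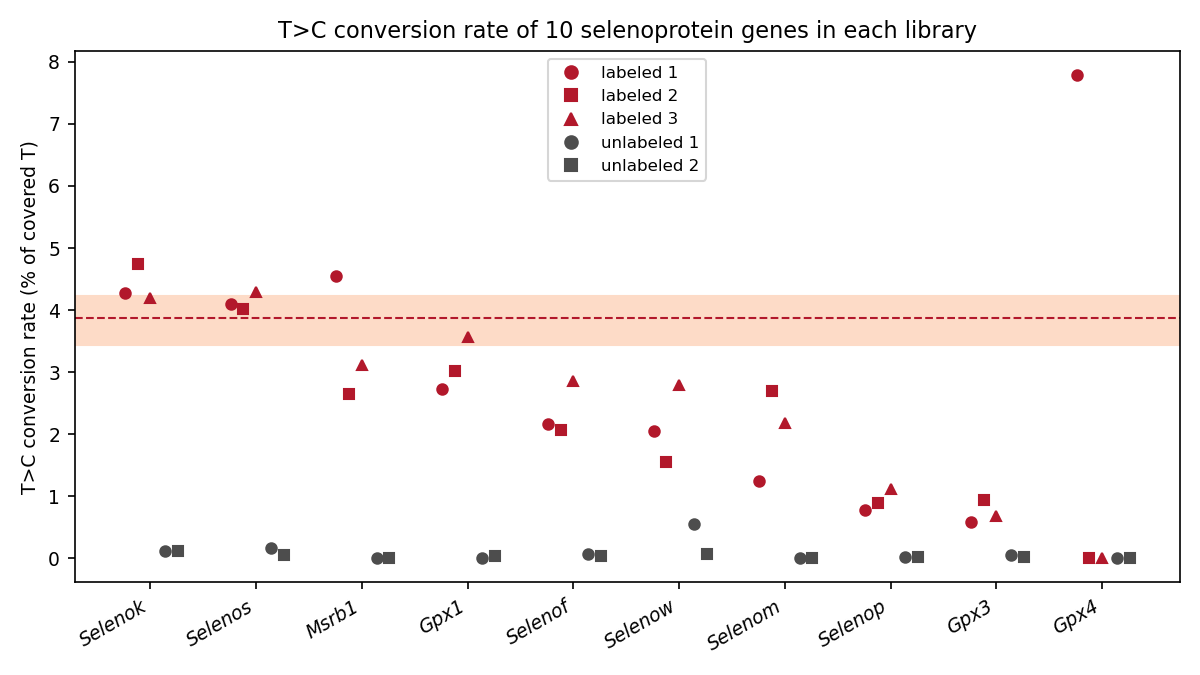
T>C conversion rate of each gene as percent of covered T positions, with 1 point per library (red: labeled, grey: unlabeled). The dashed line and the band give the median (3.88%) and the quartiles over 2107 deeply covered genes, *Selenok* and *Selenos* lie in or above the band, and *Selenop* and *Gpx3* are far below it, while *Gpx4* rests on at most 77 covered T positions per labeled library.

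Ordered by the mean rate of the labeled libraries, and without *Gpx4*, the genes were *Selenok* (4.40% ± 0.302, SD, n = 3), *Selenos* (4.14% ± 0.142), *Msrb1* (3.44% ± 0.989), *Gpx1* (3.10% ± 0.425), *Selenof* (2.37% ± 0.429), *Selenow* (2.13% ± 0.623), *Selenom* (2.04% ± 0.742), *Selenop* (0.930% ± 0.171) and *Gpx3* (0.734% ± 0.189). The steps from *Gpx1* to *Selenof* and from *Selenom* to *Selenop* were larger than the SD of either gene and had the same direction in all 3 labeled libraries. The step from *Selenop* to *Gpx3* (0.196 percentage points) was just above the SD and had this direction in 2 of 3 libraries. The other neighbours did not differ beyond their spread.

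The place of the first Sec codon relative to the last exon junction was set beside these rates after they were seen. A stop codon more than about 50 bases before the last junction is the usual trigger of nonsense-mediated decay. In 3 genes the first Sec codon is closer to the junction or past it, with 34 bases to the junction in *Msrb1*, 5 in *Selenok* and a position 80 bases past it in *Selenos*. These were the genes with the 3 highest mean rates, from 3.44% to 4.40%. In the other 6 genes that reached 100 covered T positions in each labeled library, the distance was 78 bases in *Selenof*, 105 in *Gpx1*, 135 in *Selenom*, 240 in *Gpx3*, 243 in *Selenow* and 357 in *Selenop*, and the mean rates were from 0.734% to 3.10%. The spreads of *Msrb1* and *Gpx1* overlap. Among the other selenoprotein genes covered as deeply, the 3 with a distant codon (*Selenon*, *Selenoh* and *Selenot*) had mean rates of 3.01%, 3.17% and 4.20%. The 3 with a codon past the junction (*Dio2*, *Selenoi* and *Txnrd1*) had 2.82%, 3.86% and 4.54%, so both ranges overlap there. *Dio3* (3.80%) and *Sephs2* (4.16%), also covered as deeply, have no exon junction. No relation between codon place and rate was tested.

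**Figure D3:**
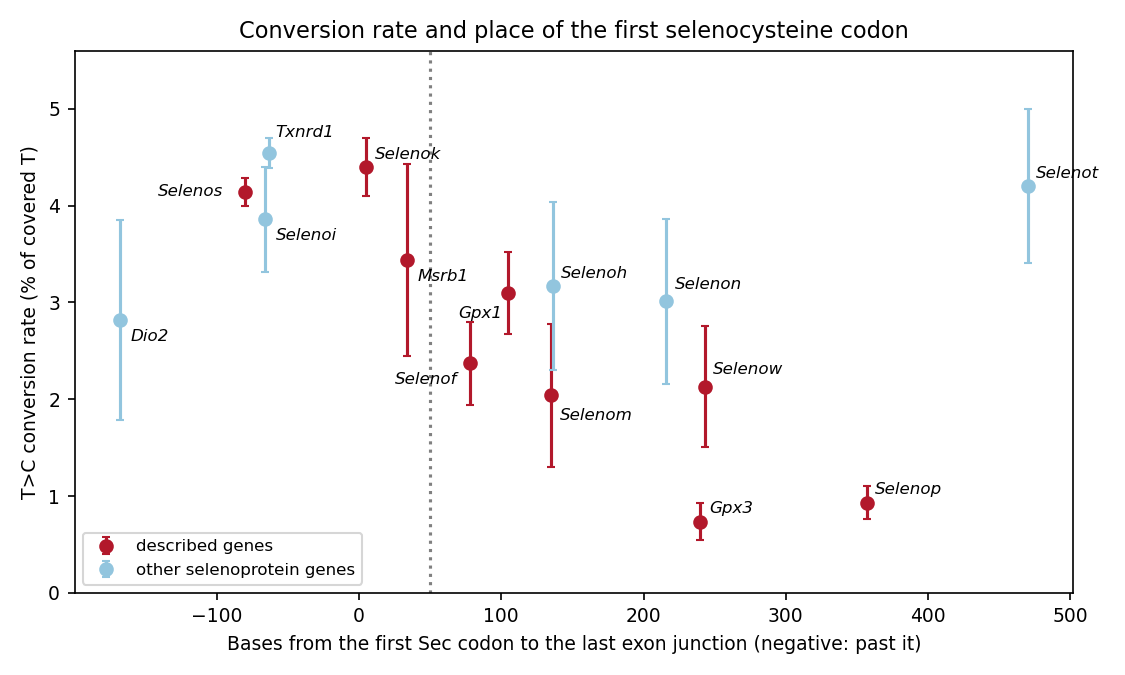
Mean T>C conversion rate of the labeled libraries against the distance from the first Sec codon to the last exon junction, in bases, for selenoprotein genes that have a junction and 100 or more covered T positions in each labeled library. Error bars are the SD of 3 labeled libraries, the dotted line marks 50 bases, red points are the genes described and blue points the other selenoprotein genes, of which *Selenot* combines a distant codon with a rate of 4.20%.

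The pentamer ATTTA, read on the transcript strand, is part of many AU-rich elements. It occurs in the intervals of *Selenop* (4 times), *Selenok* (2), *Selenof* (2) and *Selenos* (1) and in no interval of the other 6 genes, and 45.2% of the 7839 intervals of 150 to 900 bases hold it. The rest of the 3′ UTR was not searched. Of the 3′ UTR of the canonical transcript, the interval holds 800 of 4494 bases for *Selenop* and 729 of 1940 for *Gpx3*. It holds 595 of 1962 for *Selenok* and 191 of 391 for *Selenom*. Genes with a match in the interval thus include *Selenok* with the highest rate as well as *Selenop* with the last but one.

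Reads of the labeled and the unlabeled libraries were compared to see whether 12 h of S4U went along with a change of transcript level. In such bulk libraries, fewer cells of a type and less RNA per cell cannot be told apart. Of the 10 genes, 9 passed the filter on low counts and *Gpx4* did not. None of the 9 changed at an adjusted p below 0.05 by the quasi-likelihood test of edgeR (Benjamini-Hochberg adjusted), beside 0 genes (0%) among all 9807 tested. At an unadjusted p below 0.05, 1 of the 9 passed, *Selenop*, beside 585 genes (5.97%), and DESeq2 called none of the 9 and 19 genes (0.194%) in all.

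*Selenop* reads had a log2 fold change of -0.97 between labeled and unlabeled libraries (standard error 0.39, adjusted p = 0.811 by edgeR). It was the only one of the 9 genes with groups that did not overlap. Every labeled library was below both unlabeled libraries for 13.1% of the genes tested (every one above for 8.20%). Among macrophage markers, which had few reads, *Mrc1* (mean 2.70 labeled, 12.7 unlabeled) and *Adgre1* (4.94 and 10.8) were also lower in each labeled library. *Csf1r* (14.9 and 7.11) and *Fcer1g* (17.3 and 16.3) had a higher mean in the labeled libraries. The other macrophage markers had a lower mean there, with groups that overlapped. Markers of other cells were lower in each labeled library too, namely *Pdgfra* (521 and 781) and *Ddr2* (285 and 417) of fibroblasts. So were the endothelial markers *Cdh5* and *Emcn*. The fibroblast marker *Col1a1* (13036 and 9222) and the endothelial marker *Egfl7* (34.4 and 21.5) were higher in each labeled library. *Mrc1* was also higher in the library numbered 1 of both groups, as *Selenop* was. Within the libraries numbered 1 the log2 ratio of labeled to unlabeled *Selenop* was -0.78. Against unlabeled 2 it was -1.12 for labeled 2 and -0.96 for labeled 3. Without both libraries numbered 1, a fit chosen after the data were seen, the log2 fold change was -1.0 (adjusted p = 0.00181 by edgeR), beside 3.87% of genes called. This fit sets labeled 2 and 3 against unlabeled 2 alone, so its spread comes from the 2 labeled libraries and the lone unlabeled library is assumed to vary like them. In the fits that leave out 1 library, it ranged from -0.59 without unlabeled 1 to -1.37 without labeled 1, with no call.

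The remaining 8 genes had log2 fold changes between 0.07 (*Selenof*, standard error 0.31) and 0.96 (*Selenom*, standard error 1.21), all with an adjusted p of 1.00 by edgeR. *Gpx3* had 0.33 (standard error 0.77), *Gpx1* 0.35 (0.45) and *Msrb1* 0.45 (0.86). *Selenos* had 0.28 (0.23), *Selenok* 0.32 (0.33) and *Selenow* 0.27 (0.31). The median of the 9 genes was 0.32 and that of all genes tested 0.02. The median of the 9 genes depends on both unlabeled libraries. Without unlabeled 1, which leaves unlabeled 2 alone, *Gpx1* (-0.03), *Gpx3* (-0.37) and *Msrb1* (-0.27) turned negative. *Selenom* (0.03), *Selenow* (0.07) and *Selenok* (0.09) fell, and *Selenos* (0.35) and *Selenof* (0.39) rose. Without unlabeled 2, which leaves unlabeled 1 alone, the moves were the opposite. *Selenom* (3.40), *Gpx3* (1.70), *Msrb1* (1.70), *Gpx1* (0.85), *Selenok* (0.58) and *Selenow* (0.48) rose, and *Selenos* (0.21) and *Selenof* (-0.20) fell. Standard errors were largest for *Selenom*, *Msrb1* and *Gpx3*, the genes for which the library numbered 1 and the others of its group differed most. The change of *Selenom* fell to 0.60 (adjusted p = 0.233) without both libraries numbered 1.

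For 7 of the 9 genes, all but *Selenop* and *Selenos*, the difference between the library numbered 1 and the others was larger in both groups than that between labeled and unlabeled libraries. The share of all genes tested with such a difference was not counted, so whether this count exceeds the background is not known. The log2 ratio of labeled 1 to the mean of labeled 2 and 3 was -3.92 for *Selenom*, -2.62 for *Msrb1* and -2.13 for *Gpx3*, and that of unlabeled 1 to unlabeled 2 was -3.28, -1.87 and -1.96. It was -1.05 and -0.79 for *Gpx1*, -0.64 and -0.40 for *Selenok*, and -0.52 and -0.31 for *Selenow*. *Selenop* (1.03 and 0.77), *Selenof* (0.55 and 0.69) and *Selenos* (0.25 and 0.23) were higher in the libraries numbered 1. The sign was the same in both groups for 9 of these 9 genes, as it was for 80.0% of 9785 genes tested.

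The GC content of the interval moved with this difference. It was 60.7% for *Selenom*, 56.0% for *Gpx3*, 55.6% for *Msrb1*, 56.0% for *Selenow* and 50% for *Gpx1*, and 34.1% for *Selenop*, 35.4% for *Selenof*, 35.8% for *Selenok* and 40.5% for *Selenos*. Over all genes tested, the median log2 ratio was 0.51 in both groups for the 979 genes with the lowest GC content (up to 34.8%) and -0.60 (labeled) and -0.39 (unlabeled) for the 979 with the highest (from 53.8%). *Selenok* went against this order and *Selenom*, *Gpx3* and *Msrb1* were far below the medians of genes with a like GC content. Some markers of other cells also differed between the library numbered 1 and the others of its group, in both directions. Of the markers with reads in every library, 6 of 11 macrophage, 5 of 7 endothelial, 2 of 4 mural and, for comparison, 5 of 12 fibroblast markers were lower in the library numbered 1 of both groups, and 3, 2, 0 and 4 were higher in both. The summed level of the macrophage, endothelial and mural markers was lowest in labeled 1 (127, 145 and 34.3). It was 203, 256 and 57.7 in labeled 2 and 136, 156 and 88.9 in labeled 3. For the macrophage and endothelial markers labeled 3 was thus near labeled 1. These sums were lower in unlabeled 1 (137, 180 and 38.5) than in unlabeled 2 (227, 265 and 102). The macrophage marker *Lyz2* was at 2.54, 27.6 and 17.8 CPM relative to counted reads in labeled 1, 2 and 3. In unlabeled 1 and 2 it was at 3.26 and 30.1. The endothelial marker *Pecam1* was at 5.71, 27.6 and 17.8 in the labeled and at 10.9 and 41.2 in the unlabeled libraries. Their log2 ratios were -3.16 (labeled) and -3.21 (unlabeled) for *Lyz2* and -1.99 and -1.92 for *Pecam1*. Of the macrophage markers, *Mrc1* (1.28 and 1.39), *Cd68* (0.16 and 0.86) and *Cd14* (0.01 and 0.11) went the other way. So did the endothelial markers *Cdh5* (0.16 and 0.10) and *Emcn* (0.33 and 0.08). The part of GC content or of other cells in the levels of the selenoprotein genes was not tested.

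**Figure D4:**
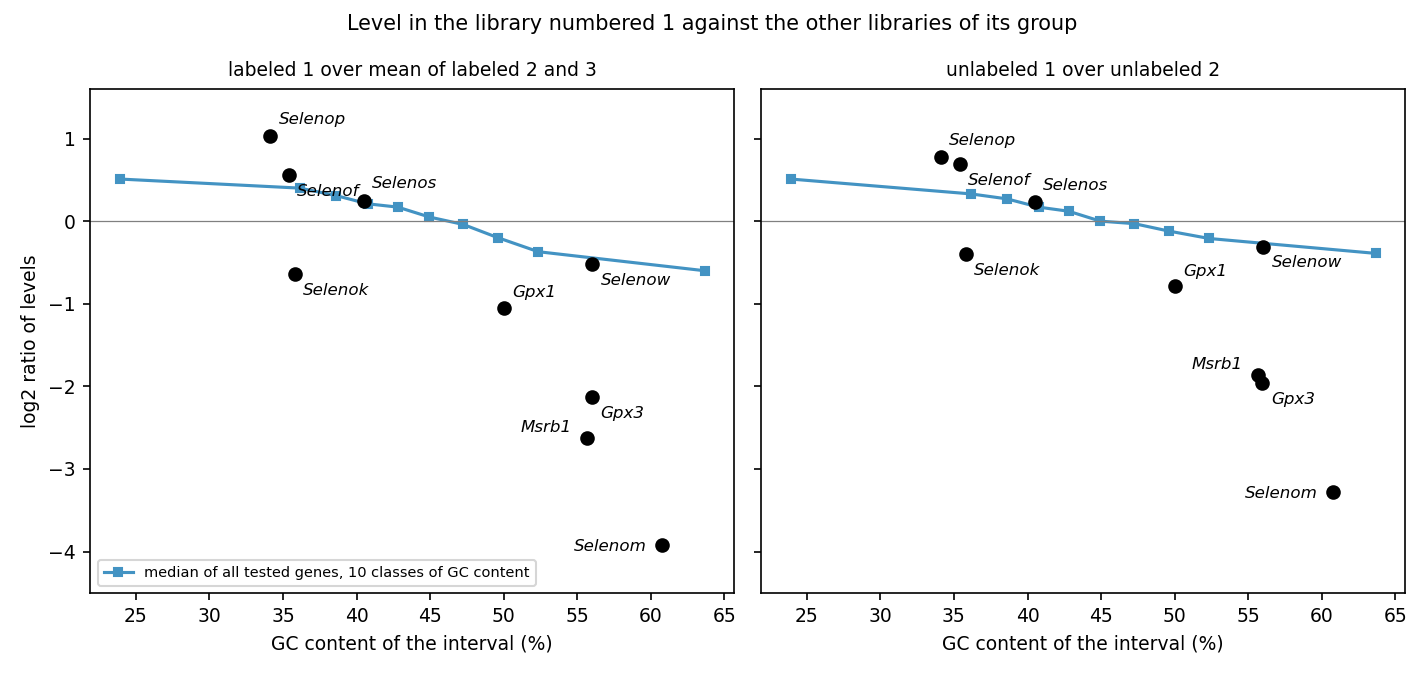
Log2 ratio of the level in the library numbered 1 to that in the other libraries of its group against the GC content of the interval in percent, for the labeled (left) and unlabeled libraries (right). Black points are the 9 selenoprotein genes tested and blue squares the medians of all genes tested in 10 classes of GC content (at the middle of each class), and *Selenom*, *Msrb1* and *Gpx3* lie lowest in both panels.

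The genes whose levels moved most like those of a selenoprotein gene over the 5 libraries were searched for *Selenom*, with the highest log2 fold change, and *Selenop*, with the lowest. Likeness was measured by the root mean square difference of centred log2 CPM among 9806 genes. *Arpc4* (0.211), *Ring1* (0.233) and *Ppp1r14b* (0.241) were nearest to *Selenom*, and all 3 were low in the libraries numbered 1, as with *Arpc4* at 19.7, 206 and 174 in the labeled and 17.9 and 154 in the unlabeled libraries. *Pm20d2* (0.0293), *Rbl2* (0.0441) and *Gucy1a2* (0.0585) were nearest to *Selenop*. *Gucy1a2*, a subunit of soluble guanylyl cyclase, was at 59.6, 27.6 and 33.6 in the labeled and at 103 and 60.2 in the unlabeled libraries. *Pm20d2* and *Rbl2* did not exceed 21.7 in any library.

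Of the 14 other selenoprotein genes, 11 had reads in every library, and *Gpx2*, *Dio1* and *Selenov* had none. The T>C rate was higher with S4U for 10 of the 11 (adjusted p below 0.05, beta-binomial test), the exception being the mitochondrial thioredoxin reductase *Txnrd2* (adjusted p = 0.0958) with 1 to 10 reads per library. The cytosolic thioredoxin reductase *Txnrd1* had the highest rate of those with over 1000 covered T positions (4.54% ± 0.154, SD, n = 3) at a level of 105 ± 26, and *Selenot* followed with 4.20% ± 0.795 at 122 ± 45.7. *Dio3*, which inactivates thyroid hormone, had a level of 93.5 ± 32.9 and a rate of 3.80% ± 0.108. *Selenon* (56.1 ± 40.5), *Selenoi* (37.5 ± 7.84), the selenophosphate synthetase *Sephs2* (29.7 ± 7.89), *Selenoh* (15.6 ± 4.16), *Selenoo* (14.3 ± 9.89), *Txnrd3* (11.1 ± 1.95) and *Dio2* (9.99 ± 2.86) were lower. None of the 10 that passed the filter had a changed read count at an adjusted p below 0.05 by edgeR. The lowest mean rate of the 11 genes was that of *Dio2* (2.82% ± 1.03), which ranged from 1.80% to 3.85% over the labeled libraries, and each of the 3 values of *Gpx3* and *Selenop* was below 1.80%.

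Of the other list genes, 67 with the selenoproteins just named, 62 had enough covered T positions for the test of the rate and 59 of them had a higher rate with S4U. None of the 58 tested for reads changed at an adjusted p below 0.05 by edgeR, and 1 (*Gclm*, log2 fold change 0.76) passed at an unadjusted p below 0.05. The rates named as highest or lowest in the following lists are those among genes that reached 1000 covered T positions in each labeled library, and less covered genes of a list can lie outside them. Among the 11 genes of Sec synthesis and decoding, *Ncl*, a nucleolar protein that also binds SECIS elements, had the highest level (304 ± 36.9, SD, n = 3). Only 2 genes of this list were deeply covered, *Ncl* with the lower rate (3.96% ± 0.144) and *Secisbp2l* with the higher (4.49% ± 0.440). Among 17 glutathione and thioredoxin partners, thioredoxin *Txn1* had the highest level (1001 ± 149), *Gclm*, a subunit of the enzyme that limits glutathione synthesis, the highest rate (4.41% ± 0.538) and *Prdx5* the lowest (2.59% ± 0.244). Among the peroxidases and methionine sulfoxide reductases that use cysteine, *Msrb3* had the highest rate (4.67% ± 0.491), and *Gpx8*, a peroxidase of the ER, the highest level (321 ± 103) and the lowest rate (2.51% ± 0.437).

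Among 11 ER quality control genes, *Vcp*, the ATPase that extracts misfolded proteins, had the highest level (528 ± 128), and *Uggt1* the lowest rate (2.22% ± 0.249). *Selenof* (2.37% ± 0.429) was thus within the spread of *Uggt1*, whose product it binds. Among 9 receptors of selenoprotein P and regulators of ferroptosis, the receptor *Lrp1* had the highest level (685 ± 190) and the lowest rate (2.33% ± 0.404), and *Acsl4* the highest rate (4.08% ± 0.584). *Lrp2* had no reads. In the deeply covered genes, the median rate was 2.73% for 6 of the 10 selenoprotein genes described, 3.74% for 24 of the other list genes and 3.88% for all genes. These 24 include 2 other selenoprotein genes, whose median was 4.37%. Among all genes tested for the rate, the median was 2.48% for the 10 described, 3.86% for 11 other selenoprotein genes and 3.79% for all.

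**Figure D5:**
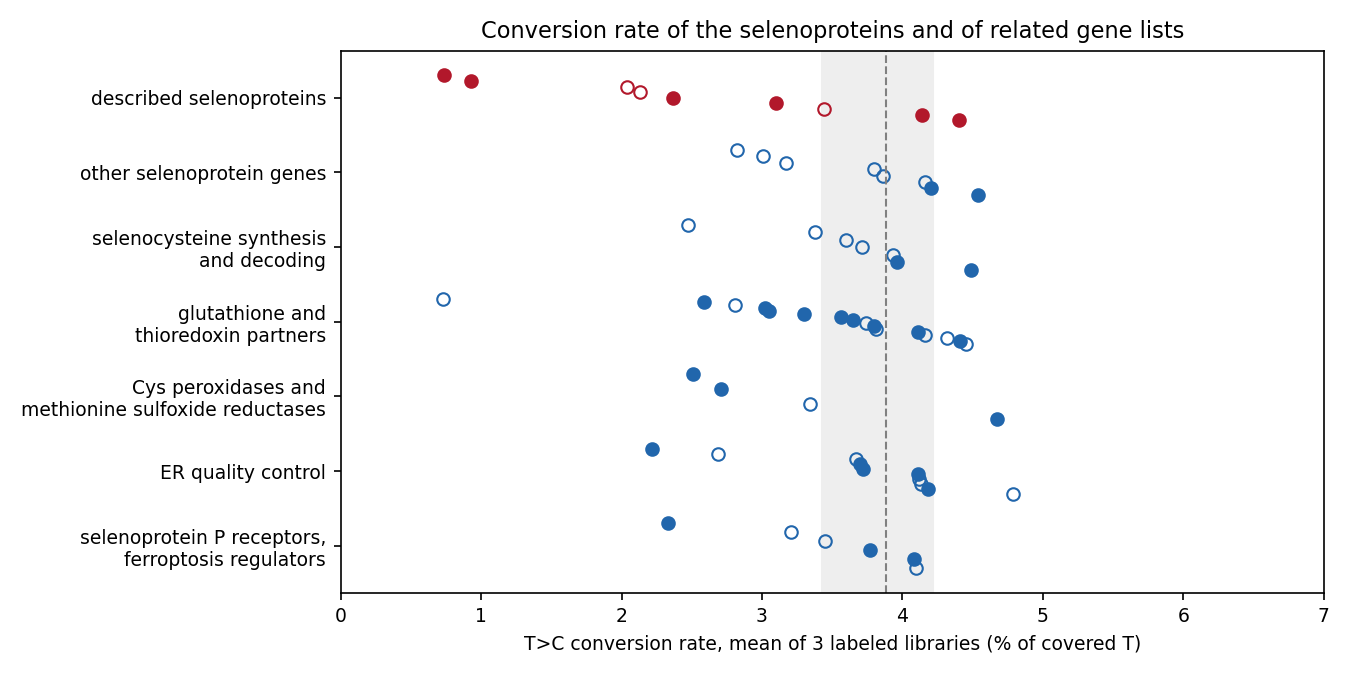
Mean T>C conversion rate of the 3 labeled libraries for the described selenoprotein genes (red) and the genes of 6 related lists (blue) that reached 100 covered T positions in each labeled library, where filled points reached 1000. The dashed line and the band give the median (3.88%) and the quartiles of 2107 deeply covered genes, and *Gpx3* and *Selenop* are the 2 leftmost red points.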

How the data were processed

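The libraries were 3′ end SLAMseq libraries of mouse CF (3 labeled, 2 unlabeled), grouped by the labels. The authors moved unique molecular identifiers into the read headers, mapped to mm39 with SLAM-DUNK (version 0.4.3 per the file headers), removed duplicates with UMI-tools and counted on 3′ UTR intervals. The deposited read, conversion and covered-T counts are not normalized. The deposited conversion rate is a fraction, conversions over covered T positions, and was recomputed in percent. The deposited CPM divides by a number of reads 7.58 to 28.9 times the counted reads and served to choose the interval and as an alternative level. Whether the counting used the strand is not given in the sources used here.

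Repeated rows were used once (97442 rows, 40428 intervals). For rates, labeled and unlabeled libraries entered a likelihood-ratio test of a beta-binomial model (shared overdispersion, chi-square with 1 degree of freedom, two-sided, at least 1 covered T in every library, Benjamini-Hochberg adjustment over all intervals). Reads entered the quasi-likelihood test of edgeR on 1 interval per gene (TMM, filterByExpr). The study used unadjusted p for rates. Both tests were tested on simulated data. Tied intervals were resolved by length. Copies were searched with blastn 2.17.0 (at least 50 bases and 90% identity), and places were read from GRCm39.

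All 10 genes are named, with every other selenoprotein gene with reads in every library. In each further list the genes called in the read test, the gene with the highest level and those with the highest and lowest rate at 1000 or more covered T positions in every labeled library are named. The result for 1 gene that this rule names is not reported here. Genes most like a member were ranked on log2 CPM with an edgeR prior count of 2. Members and lists were chosen with earlier results of these data known. Alternatives were unadjusted p, minimums of 100 and 1000 covered T, limma on log odds (pseudocount 0.5), DESeq2, other size factors and count filters, summed intervals, the replicate number as a block, the share of reads with a conversion, background subtraction, levels as deposited CPM, TMM-scaled or per kb, and leaving out libraries. Versions were edgeR 4.0.16, DESeq2 1.42.0 and limma 3.58.1 under R 4.3.3, and scipy 1.17.1, numba 0.67.0, pandas 2.3.3, numpy 2.4.6 and matplotlib 3.10.9 under Python 3.11.15.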

Additional observations from a re-analysis of the deposited data

How the results depend on the processing

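The count of 9 selenoprotein genes with a higher T>C rate stayed within 1.5 times under every alternative run (from 6 with at least 1000 covered T positions to 10 without labeled 2), and that of the other list genes moved only with at least 1000 covered T positions, from 59 to 24, since fewer genes are then tested. For reads, 0 of the selenoprotein genes and 0 of the other list genes were called, and the same count was found with DESeq2, other size factors, other filters, summed intervals and each library left out. With the replicate number as a block, 1 selenoprotein gene (*Selenop*, log2 fold change -0.89, adjusted p = 3.83e-07 by edgeR, 1 residual degree of freedom) and 7 other list genes were called, beside 11.7% of all genes, and *Gpx3* turned to -0.05. The labels do not state that a number marks a shared preparation, and only 2 numbers are shared. Deviations from the group means correlated by 0.784 between the libraries numbered 1, and with unlabeled 2 by 0.638 for labeled 2 and 0.482 for labeled 3, where the deviations of the 2 unlabeled libraries mirror each other, so these are not separate evidence of pairing. Without both libraries numbered 1, 1 selenoprotein gene (*Selenop*) and 1 other list gene (*Dio3*, 1.43) were called, with a spread from labeled 2 and 3 alone. With 1 library left out, the log2 fold change ranged from -0.03 to 0.85 for *Gpx1*, from -0.37 to 1.70 for *Gpx3* and from 0.03 to 3.40 for *Selenom*. It ranged from -0.20 to 0.39 for *Selenof*, from -0.27 to 1.70 for *Msrb1*, from 0.09 to 0.58 for *Selenok* and from 0.07 to 0.48 for *Selenow*. The cause of these changes was not tested. Subtracting the unlabeled rate or summing intervals moved rates by less than 1 SD, the rate of *Gpx4* was 0 without labeled 1, and depth limits *Gpx4*, *Selenom* and *Msrb1* most.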

Other observations

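Among the related lists, the peroxiredoxin *Prdx4*, which works in the ER and is also secreted, had a T>C conversion rate as low as that of *Gpx3* and was singled out after its values were seen. It was at 0.709%, 0.989% and 0.480% in labeled 1, 2 and 3, from 417 to 2540 covered T positions, and at 0.0410% and 0 in the unlabeled libraries, where 0 conversions in 483 covered T positions allow up to 0.621%, above the value of labeled 3, which counts 2 conversions (adjusted p = 0.000899, beta-binomial test). Its level was 65.7 ± 22.0 CPM relative to counted reads (SD, n = 3 labeled libraries). The other peroxiredoxins *Prdx1*, *Prdx2*, *Prdx3*, *Prdx5* and *Prdx6* had mean rates from 2.59% to 4.45%.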
